A study of Saccharomyces cerevisiae with 15 samples.

Results

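The first transcript response to the N-downshift was read from 6 of the 15 arrays of the series, the 3 arrays labelled 7 min after the shift and the 3 labelled −10 min, each pair taken from 1 of 3 bioreactor cultures (BY013, BY009 and BY010). All cultures were the prototrophic wild-type strain YSBN6 of Saccharomyces cerevisiae, with no mutation, allele or drug that differed between the groups. They grew in batch on glucose minimal medium with glutamine and proline as N-sources, and both groups thus shared proline and glucose throughout. The −10 min group was growing on glutamine, and the 7 min group was sampled after glutamine could no longer be detected in the medium, so that proline was the N-source left. The study's supplement places the first sample earlier than its label in all cultures and not at the same time in each, so the interval between the groups is at least as long as the labels give. Transcript abundances were measured as biotin-labeled cRNA on Affymetrix Yeast Genome 2.0 arrays, in which the brightness of a set of short probes stands for the abundance of 1 transcript. The 3 cultures are the replicates, and each value below is given in the order BY013, BY009 and BY010. Whole cultures were sampled, so that fewer cells expressing a gene and less RNA per cell cannot be told apart.

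Yeast ranks its N-sources. While a preferred source such as glutamine is present, the transporters and enzymes for poor sources are held down by nitrogen catabolite repression (NCR), in which the GATA activators Gln3 and Gat1 are kept from acting and the GATA repressors Dal80 and Gzf3 counter them. The same nutrient state feeds the kinase complex TORC1, which favours the making of ribosomes through Sch9, Sfp1 and other factors and restrains Tod6, Dot6 and Stb3, repressors of ribosome biogenesis genes. Protein kinase A likewise restrains the zinc-finger activators Msn2 and Msn4, which bind the stress-response element of genes for protective proteins and for the storage sugars trehalose and glycogen. Proline, the poor source here, is taken up by Put4 and Gap1 and oxidized to glutamate in mitochondria by Put1 and Put2.

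Among the 6 arrays, the summed intensity was 22691203 to 23323727. A level of 68.1, the 95th percentile of probe sets for another organism on the same arrays, served as background, and 125 of the 5498 probe sets for single S. cerevisiae genes lay at or below it on average over the 15 arrays. Probe sets for another organism gave 0 of 1746 past the same threshold in a limma fit and adjustment of their own, with 119 at an unadjusted p under 0.05. Only 135 of them lay above background, so this count does not measure false calls among brighter transcripts. Defining markers of a-type haploid cells were bright, with STE2, for the receptor of alpha-factor, at 15112, 15099 and 15005 at −10 min and 15348, 14909 and 15011 at 7 min, whereas MF(ALPHA)1, for the alpha-factor pheromone, stood at 64.0, 61.5 and 66.4 at −10 min and 65.3, 62.7 and 61.9 at 7 min, below background. Of the 7 markers of a cells and the 4 of alpha cells, 0 of each passed the test (unadjusted p under 0.05 for 1 and 0). Of 12 genes of meiosis and sporulation, 3 (25%) were higher, beside 17.6% of all transcripts. The 3 were IME2, SPR3 and SPS4, whose log2 changes were 0.21, 0.37 and 0.64, and the meiotic regulator IME1 had −0.051 (adjusted p = 0.635). The summed intensity of these 12 was 4062 to 4225 at −10 min and 4371 to 5121 at 7 min. The call was lost for IME2 and SPR3 without BY013 (adjusted p from 0.162 to 0.297), and for IME2 without BY010 (adjusted p = 0.182).

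At 7 min the response was broad in the number of transcripts and small in size. In limma with the culture as a block, 2040 of 5498 transcripts (37.1%) passed an adjusted p of 0.05, 968 of them higher (17.6%) and 1072 lower (19.5%). These shares are the base for the counts of every gene list below. The median size of a called change was 0.28 on the log2 scale. Changes of more than 1.5-fold numbered 358, of which 116 were rises and 242 falls, and changes of more than 2-fold numbered 82, of which 24 were rises and 58 falls. Only 2, both falls, exceeded 4-fold. The 3 arrays of the groups did not overlap for 1981 of the 2040 called transcripts, and for 2854 (51.9%) of all 5498. With each array centred on its median, 63.1% of the called transcripts were higher in place of 47.5%, and the median change of all transcripts moved from −0.011 to 0.038, so the balance of rises and falls depended on the scaling. Without BY013, BY009 or BY010 the called transcripts numbered 1112, 2725 and 1165.

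The transcript that fell furthest was AGP1, whose product is a permease that takes up many amino acids. Its intensity was 6853, 5428 and 6931 at −10 min and 1010, 1179 and 1175 at 7 min. The groups were far apart, and the log2 change was −2.51 (SE 0.099, adjusted p = 2.45e-06), a 5.69-fold fall. TOD6, for a repressor that binds the promoters of ribosome biogenesis genes, stood at 937, 946 and 871 at −10 min and 174, 306 and 214 at 7 min. It fell 4.07-fold, by 2.03 on the log2 scale (SE 0.18, adjusted p = 5.54e-05), and BY009 kept the most of it. DHR2, for an RNA helicase of the small ribosomal subunit pathway, went from 1307, 1459 and 1311 to 337, 580 and 439, a change of −1.62 (SE 0.19, adjusted p = 0.000161). The 25 largest falls ran from −2.51 to −1.16. Most of these genes serve the making of ribosomes. They include REI1 (−1.44, SE 0.16), for a factor that matures the large subunit in the cytoplasm, RRN11 (−1.40, SE 0.13), for a subunit of the core factor of RNA polymerase I, FAL1 (−1.38), RRP36 (−1.34), LCP5 (−1.30), HCA4 (−1.21), BFR2 (−1.18) and LTV1 (−1.19) of the small subunit, and RSA4 (−1.33), RPF1 (−1.30), SYO1 (−1.27), NOG2 (−1.25), IPI1 (−1.16) and RIX1 (−1.16) of the large subunit. BMT5 and BMT6, for methyltransferases of the large-subunit rRNA, changed by −1.20 and −1.54. Others have different roles. RFU1, for an inhibitor of the deubiquitinase Doa4, went from 2160, 2119 and 2218 to 638, 1002 and 782 (−1.45, SE 0.13), and JJJ3, for a J-protein needed to make diphthamide on elongation factor 2, changed by −1.5 (SE 0.19). GFD2, ATC1 and the open reading frames YGR079W and YNL162W-A fell by 1.44, 1.25, 1.43 and 1.42 on the log2 scale.

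**Figure D1:**
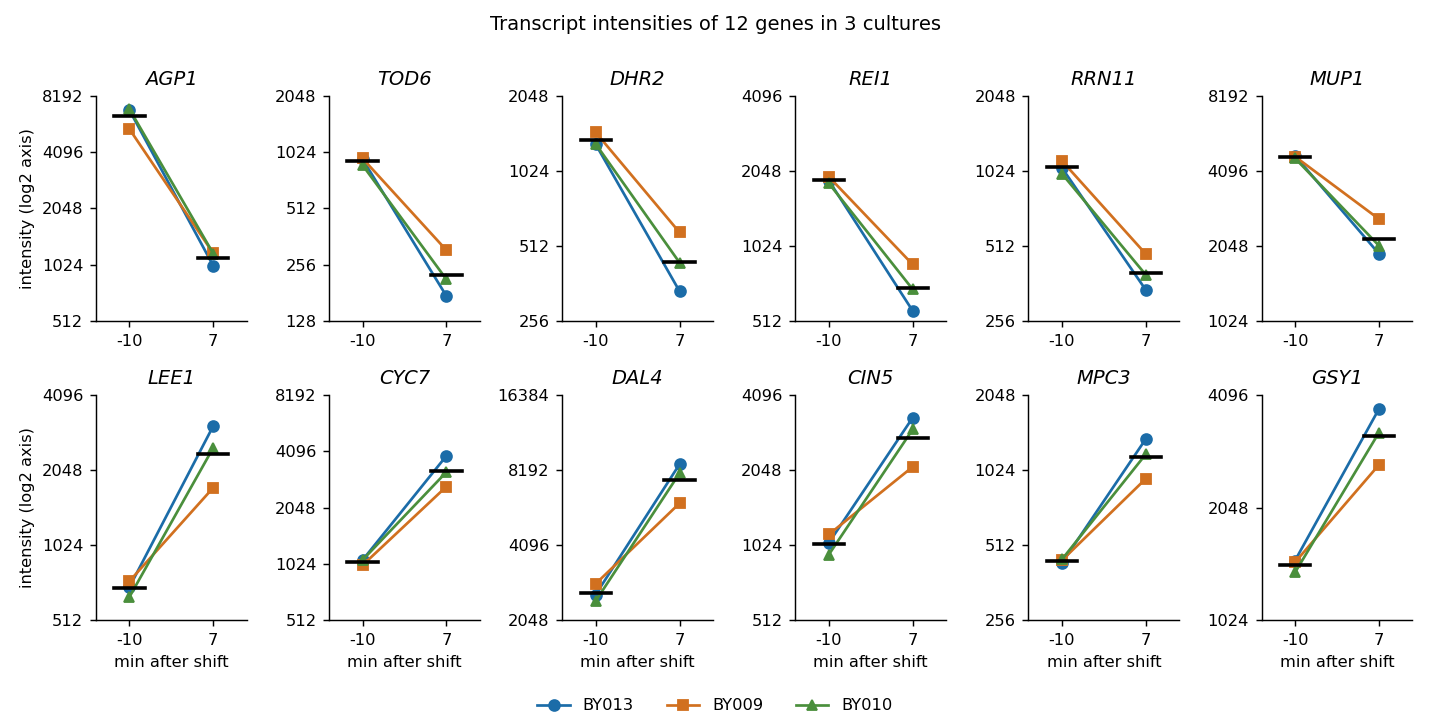
Intensities of 12 genes at −10 and 7 min on log2 axes, with a line per culture and the mean of log2 values as a black bar in each group. The upper row holds genes that fell and the lower row genes that rose, and in each panel the 3 arrays at 7 min stand clear of the 3 at −10 min, with the change smallest in BY009.

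The genes for assembling ribosomes fell nearly without exception. Of 70 genes of the small-subunit pathway, 70 passed with lower transcripts, and of 71 of the large-subunit pathway 70 did, where 19.5% of all transcripts were lower. Their medians were −0.82 and −0.76 on the log2 scale, against −0.011 over all transcripts, with −0.97, −0.68 and −0.79 and −0.94, −0.63 and −0.76 in the 3 cultures. The range ran from DHR2 at −1.62 to −0.19 in the small-subunit list, and from REI1 at −1.44 to REA1, for a giant ATPase of pre-60S particles, at −0.15 in the large-subunit list. The member that did not pass was SSF2 (−0.23, adjusted p = 0.313), whose close relative SSF1 fell from 1806, 1696 and 1974 to 672, 1030 and 789 (−1.16, SE 0.19). These lists hold 55 and 56 of the 241 genes that fell by more than 1.5-fold, and 21 and 17 of the 58 that fell by more than 2-fold. No longer past the threshold was REA1 without BY013 (adjusted p = 0.132), and REA1 without BY010 (adjusted p = 0.169).

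Falls extended to the machinery that transcribes and handles stable RNA. For RNA polymerases I and III and their factors, 30 of 41 were lower and 1 higher (median −0.42). The polymerase I subunit genes RPA43 and RPA12 went from 3917, 4120 and 3629 to 2075, 2317 and 2285 and from 3654, 3993 and 3937 to 1964, 2600 and 2193, changes of −0.80 (SE 0.064) and −0.79 (SE 0.081). The core factor genes RRN7 and RRN11 stood at −0.72 and −1.40, and RRN3, for the factor that recruits polymerase I, at −0.59. The member that rose was MAF1, for the repressor of RNA polymerase III, at 1930, 1905 and 1816 at −10 min and 2389, 2071 and 2414 at 7 min. Its groups did not overlap, and its change was 0.28 (SE 0.056, adjusted p = 0.00333). Of the initiation factors of polymerase III, the TFIIIC gene TFC6 fell (−0.23), while TFC1, TFC3, TFC7 and BDP1 had 0.10, 0.052, 0.096 and 0.095 and did not pass. Among tRNA-modifying enzymes 34 of 40 fell (median −0.44), led by the methyltransferase genes TRM2 (−1.05, SE 0.099) and TRM11 (−0.95, SE 0.13), the thiolation gene NCS2 (−0.83) and the dihydrouridine synthase gene DUS1 (−0.82). The threshold was missed by TFC6 without BY013 (adjusted p = 0.102), and MAF1 and TFC6 without BY010 (adjusted p from 0.0721 to 0.0758).

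In the exosome list, 16 of 22 fell (median −0.32). AIR1 and TRF5, for the zinc-knuckle protein and the poly(A) polymerase of a nuclear TRAMP complex, went from 1837, 1906 and 1831 to 705, 963 and 891 (−1.14, SE 0.11) and from 1297, 1357 and 1295 to 638, 766 and 742 (−0.88, SE 0.093). The helicase gene MTR4 changed by −0.61 and the exosome cofactor gene LRP1 by −0.59. The cytoplasmic Ski genes SKI2, SKI3, SKI7 and SKI8 stood between −0.042 and 0.044, and 0 of them passed. Translation factors fell in 25 of 41 cases, and less far (median −0.14). The furthest, GCD14 (−0.67) and GCD10 (−0.66), encode the subunits of a tRNA methyltransferase, and they were followed by TIF4631 (−0.31), for the initiation factor eIF4G, and RLI1 (−0.30), for a ribosome-recycling ATPase. Of the cytosolic tRNA synthetases 8 of 20 were lower (median −0.077), MES1 for methionine the furthest at −0.18, with 1, 14 and 2 lower without BY013, BY009 and BY010. With each array centred on its median, 1 was lower (median −0.029), so this count depended on the scaling.

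Ribosomal protein genes had not moved to this extent at 7 min. Of 127 measured, 5 were lower and 0 higher, the median was −0.023, and the cultures gave −0.035, 0.0051 and −0.033. The members that passed were RPL22B, at 7437, 7252 and 7379 at −10 min and 5057, 6249 and 5319 at 7 min (−0.41, SE 0.061, adjusted p = 0.000528), RPS9A (−0.23, SE 0.053), RPS25B (−0.12, SE 0.037), RPL23B (−0.091, SE 0.028) and RPL8A (−0.088, SE 0.029), of which a further probe set of RPL8A did not pass. The number is sensitive to single cultures, since 34 were lower without BY009, 1 without BY013, 1 without BY010 and 20 when only the 6 arrays were fitted, while the median stayed between −0.035 and −0.013 in these fits. At 24 min the same probe sets were lower in 127 of 127 cases against −10 min (median −0.45), at a time when 80.8% of all transcripts passed in one direction or the other. Mitochondrial ribosomal protein genes were higher in 7 of 69 cases (10.1%, median 0.01), a smaller share than the 17.6% of all transcripts. Of these 7, 0 passed without BY013 or without BY010. In leave-one-culture-out fits the call was lost by RPS9A, RPS25B, RPL23B and RPL8A without BY013 (adjusted p from 0.0669 to 0.219), and RPS9A, RPS25B, RPL23B and RPL8A without BY010 (adjusted p from 0.085 to 0.219).

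Among the regulators of these genes, IFH1, for the coactivator of ribosomal protein genes, went from 1817, 1914 and 1849 to 1073, 1322 and 1218 (−0.63, SE 0.077, adjusted p = 0.000185), and SCH9, for the kinase that TORC1 phosphorylates, changed by −0.18 (SE 0.045, adjusted p = 0.0103). CRF1, for a corepressor of ribosomal protein genes, and STB3, for a repressor of ribosome biogenesis genes, were higher at 0.26 (SE 0.086) and 0.15 (SE 0.051). DOT6, the relative of TOD6, stood at 5282, 5599 and 5351 at −10 min and 5366, 5114 and 5301 at 7 min and had a change of −0.041 (adjusted p = 0.436). FHL1, SFP1, RAP1 and HMO1, which activate ribosomal genes, did not pass, with −0.27, −0.088, −0.062 and −0.039. The call was lost for SCH9, CRF1 and STB3 without BY013 (adjusted p from 0.0878 to 0.262), and for CRF1 and STB3 without BY010 (adjusted p from 0.124 to 0.186), and for CRF1 and STB3 without BY009 (adjusted p from 0.065 to 0.105).

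**Figure D2:**
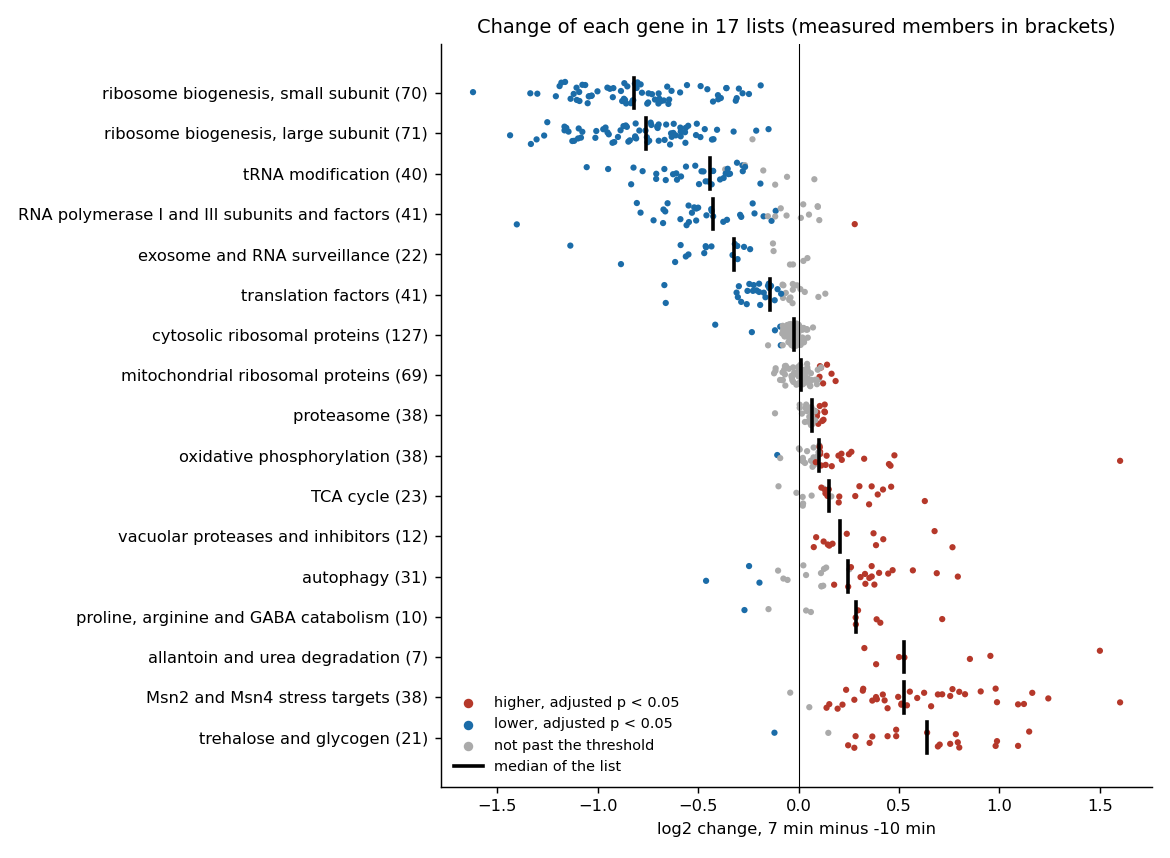
Log2 change from −10 to 7 min of each measured gene in 17 lists, with 1 point per gene, red or blue where limma's adjusted p was under 0.05, and a black bar at the median of the list. Points of the ribosome assembly lists lie to the left of 0, those of the cytosolic ribosomal proteins close to 0, and those of the stress, storage sugar and allantoin lists to the right.

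On the side of rising transcripts, LEE1, for a zinc-finger protein, rose furthest of the 5498 transcripts. Its intensity was 696, 735 and 636 at −10 min and 3075, 1741 and 2516 at 7 min, a 3.46-fold rise (1.79, SE 0.14, adjusted p = 5.03e-05) of which BY013 showed the most and BY009 the least. CYC7, for the cytochrome c isoform made when oxygen is low, stood at 1075, 1009 and 1075 at −10 min and 3868, 2652 and 3170 at 7 min and rose 3.03-fold (1.60, SE 0.10, adjusted p = 4.81e-05). DAL4, for the allantoin permease, went from 2600, 2870 and 2450 to 8636, 6028 and 7948 (1.5, SE 0.11). CIN5, for a transcription factor of the Yap family, went from 1046, 1130 and 939 to 3315, 2108 and 2976 (1.41, SE 0.14), and MPC3, for a subunit of the mitochondrial pyruvate carrier, from 434, 445 and 449 to 1363, 945 and 1184 (1.38, SE 0.11). In all of these the 7 min arrays stood above every −10 min array. The 25 largest rises ran from 1.79 to 0.98. They held the alcohol dehydrogenase relative BDH2 (1.37), SOL4 (1.24), for a 6-phosphogluconolactonase, the membrane protein gene PHM7 (1.24), RTC3 (1.18), YNL194C (1.17), for a relative of the plasma membrane protein Sur7, TMA10 (1.12), IGD1 (1.12), for an inhibitor of glycogen debranching, RGI1 (1.05), known from respiratory growth, DCS2 (1.03), for a regulator of the decapping scavenger Dcs1, and ATG39 (1.02), for a receptor of autophagy of the nucleus. YNR014W, YGR174W-A and YCL042W, which carry no gene name, rose by 1.15, 1.10 and 1.40. Of the 115 genes that rose by more than 1.5-fold, 68 were in no list.

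Genes listed as targets of Msn2 and Msn4 rose as a group. The list was written with earlier results of these data known, and whether these factors caused the rise was not tested. Of 38, 36 were higher and 0 lower, where 17.6% of all transcripts were higher, with a median of 0.53 and 0.69, 0.38 and 0.60 in the 3 cultures. The small heat shock protein gene HSP42 went from 2895, 2958 and 2822 to 7510, 5263 and 6870 (1.16, SE 0.12) and the cytosolic catalase gene CTT1 from 1634, 1844 and 1648 to 4379, 3171 and 3686 (1.12, SE 0.095). The chaperone genes HSP104 and HSP26 rose by 0.42 and 0.50 and HSP12 by 0.19. HSP30 and TRX2 did not pass, at −0.041 and 0.054. Of 35 heat shock and chaperone genes 11 were higher (median 0.058; 7, 17 and 7 without BY013, BY009 and BY010), among them SSA1 (0.13) and SIS1 (0.19), while SSB1, SSB2, HSC82, SSC1 and KAR2 stood at −0.027, −0.041, 0.019, 0.082 and 0.042, none past the threshold. Antioxidant enzymes were higher in 11 of 31 cases (median 0.054; 6, 16 and 8 in the same order), led after CTT1 by the peroxiredoxin gene PRX1 (0.39), the glutaredoxin gene GRX2 (0.35) and the peroxidase gene GPX1 (0.34). No longer past the threshold were SSA1, SIS1 and GPX1 without BY013 (adjusted p from 0.0553 to 0.133), and SSA1 and SIS1 without BY010 (adjusted p from 0.113 to 0.142).

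Genes of storage sugar metabolism rose on the side of synthesis and of breakdown. Of 21 genes, 19 were higher and 1 was lower, with a median of 0.64 (0.80, 0.43 and 0.68 in the cultures). The list shares members with that of Msn2 and Msn4, so their counts are not independent. Of the rises over 1.5-fold, 17 were in that list, 11 in this one and 22 in either. The glycogen synthase genes GSY1 and GSY2 changed by 1.15 (SE 0.099) and 0.76 (SE 0.076), the branching enzyme gene GLC3 by 0.79 and the trehalose synthase genes TPS1, TPS2 and TSL1 by 0.44, 0.69 and 0.80. Of the breakdown genes, GPH1, for glycogen phosphorylase, went from 1689, 1742 and 1461 to 3810, 2860 and 3035 (0.98, SE 0.075), GDB1, for the debranching enzyme, rose by 0.49, and the trehalase genes NTH1, NTH2 and ATH1 rose by 0.37, 0.35 and 0.49. GAC1, for the subunit that directs a protein phosphatase to glycogen synthase, was not above background on any array at −10 min (56.9, 53.1 and 39.9) and stood at 124, 82.7 and 114 at 7 min, at least 1.55-fold higher with each dim array raised to the background level (adjusted p = 0.00028). PGM2, the main phosphoglucomutase gene, rose by 0.99 (SE 0.07), while the minor isozyme gene PGM1 was the member that fell (−0.12, SE 0.04, adjusted p = 0.042). The threshold was missed by PGM1 without BY013 (adjusted p = 0.174), and PGM1 without BY010 (adjusted p = 0.16), and PGM1 without BY009 (adjusted p = 0.0773). PGM1 also missed it with each array centred on its median (adjusted p = 0.0655).

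Of 22 genes for regulators of stress responses, 10 were higher and 2 lower (median 0.10). After CIN5, the largest rises were those of the zinc-finger gene USV1 (554, 548 and 478 at −10 min and 1310, 944 and 1005 at 7 min; 1.03, SE 0.089), the repressor gene XBP1 (0.94, SE 0.087), known from starved cells, the repressor gene NRG1 (0.77, SE 0.068), and GIS1 (0.64), a target of the Rim15 kinase. MSN4 rose by 0.50 (SE 0.078, adjusted p = 0.000737), and MSN2 had 0.082 (adjusted p = 0.176). The kinase gene YAK1 rose by 0.46, whereas RIM15, IGO1 and HSF1 stood at 0.098, 0.078 and 0.02 and did not pass. The members that fell were SKN7 (−0.38) and RPH1 (−0.34).

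Genes for the use of poor N-sources rose in part. All 7 measured genes of allantoin and urea use were higher (median 0.53, with 0.70, 0.33 and 0.63 in the cultures), and they stayed so under every alternative run. DAL1 and DAL2, for allantoinase and allantoicase, which open the pathway, rose by 0.96 (SE 0.14) and 0.85 (SE 0.10). The other transporter genes DAL5 and DUR3, for allantoate and urea, went from 11600, 13114 and 11980 to 18233, 16486 and 17166 (0.50, SE 0.049) and from 3362, 3316 and 3352 to 5466, 3945 and 5185 (0.53, SE 0.098). DAL3 and DAL7 rose by 0.39 and 0.33. Of the GATA factors, DAL80, a repressor gene that is itself under NCR, rose from 8297, 8337 and 8521 to 14344, 11919 and 13689 (0.66, SE 0.054, adjusted p = 5.09e-05) and the activator gene GAT1 from 9115, 9248 and 9313 to 11673, 10872 and 11621 (0.30, SE 0.034, adjusted p = 0.000132). GZF3 rose by 0.20 (SE 0.053, adjusted p = 0.0166). GLN3 and URE2, for the activator and the protein that holds it in the cytoplasm, changed by −0.22 (SE 0.064, adjusted p = 0.0207) and −0.21 (SE 0.056, adjusted p = 0.016). The pathway activator genes DAL81 and DAL82 did not pass (−0.056 and 0.043). In leave-one-culture-out fits the call was lost by GZF3 and GLN3 without BY013 (adjusted p from 0.0883 to 0.235), and GZF3, GLN3 and URE2 without BY010 (adjusted p from 0.1 to 0.133).

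Permease genes moved both ways. Of 20 amino acid permease genes, 6 (30%) were higher and 7 (35%) lower (median −0.13), where 17.6% of all transcripts were higher and 19.5% lower. The rises were those of PUT4, the proline permease gene, at 5414, 5795 and 4887 at −10 min and 11186, 9335 and 10323 at 7 min (0.94, SE 0.066, adjusted p = 4.81e-05), UGA4, for GABA, at 669, 723 and 718 at −10 min and 1595, 955 and 1541 at 7 min (0.92, SE 0.13, adjusted p = 0.000468), AGP2 (0.56), DIP5 (0.51), for acidic amino acids, CAN1 (0.15), for arginine, and MUP3 (0.14). The falls after AGP1 were those of the methionine permease gene MUP1 (4704, 4669 and 4597 at −10 min and 1908, 2627 and 2056 at 7 min; −1.10, SE 0.13), the tryptophan permease gene TAT2 (−0.79, SE 0.081), GNP1 (−0.69, SE 0.092), for glutamine, HIP1 (−0.40, SE 0.045), for histidine, and MMP1 and SAM3, for S-methylmethionine and S-adenosylmethionine (−0.28 and −0.27). GAP1, the general permease gene, stood at 18361, 19273 and 18489 at −10 min and 18963, 19124 and 18769 at 7 min, with overlapping groups and a change of 0.019 (adjusted p = 0.615). The genes of the SPS sensor, which induces AGP1, GNP1 and other permease genes when amino acids are outside, had smaller changes, with SSY1 at 0.0093, PTR3 at −0.14 and SSY5 at −0.074, none past the threshold, and STP1, for the activator it processes, at −0.18 (SE 0.045, adjusted p = 0.0115). The call was lost for CAN1, MUP3, SAM3 and STP1 without BY013 (adjusted p from 0.0628 to 0.172), and for CAN1, MUP3 and SAM3 without BY010 (adjusted p from 0.104 to 0.197).

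Among 21 genes for ammonium and other transporters of nitrogen compounds, 8 were higher and 4 lower. These are 38.1% and 19.0%, beside 17.6% and 19.5% of all transcripts. The oligopeptide transporter genes OPT2 and OPT1 rose by 0.73 (SE 0.078) and 0.47 (SE 0.058) and ATO2, for an ammonium exporter, by 0.66 (SE 0.10). MEP1, for an ammonium permease, went from 6090, 6264 and 6426 to 9895, 8130 and 9565 (0.55, SE 0.086, adjusted p = 0.000782), MEP2 changed by 0.16 (SE 0.023, adjusted p = 0.000359) and MEP3 by −0.057 (adjusted p = 0.314). The uridine and uracil permease genes FUI1 and FUR4 fell by 0.60 and 0.41 on the log2 scale. Of the genes that break down proline, arginine and GABA, 6 of 10 were higher and 1 lower (median 0.28). PUT1 and PUT2, for both enzymes of proline oxidation, went from 17295, 17314 and 16993 to 21871, 20637 and 20878 (0.30, SE 0.024, adjusted p = 5.2e-05) and from 10269, 10507 and 10104 to 14327, 12796 and 13868 (0.41, SE 0.036, adjusted p = 5.3e-05), and their activator gene PUT3 had −0.15 (adjusted p = 0.0856). The GABA genes GAD1, UGA1 and UGA2 rose by 0.72, 0.39 and 0.29. CAR1, the arginase gene, was the member that fell, from 8772, 8484 and 9043 to 7149, 6742 and 7982 (−0.27, SE 0.037, adjusted p = 0.000356), and CAR2, for the next enzyme, had 0.062 (adjusted p = 0.367). No longer past the threshold was UGA2 without BY013 (adjusted p = 0.0603).

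Genes for enzymes of glutamate and glutamine had small rises. The glutamine synthetase gene GLN1 went from 16062, 16256 and 15555 to 18890, 17602 and 18765 (0.21, SE 0.03), GLT1, for glutamate synthase, changed by 0.13 (SE 0.034), and the glutamate dehydrogenase genes GDH2 and GDH3 by 0.28 (SE 0.065) and 0.36 (SE 0.12), of which GDH3 was not higher in BY009. GDH1 did not pass (0.071, adjusted p = 0.0577). Over the 48 measured NCR-sensitive genes that the study tabulates, a list drawn up by the study with these samples at hand and so no independent evidence of direction, 25 were higher and 4 lower (median 0.12). Of the 7 retrograde targets in the same table, 5 rose and 1, DLD3, fell (−0.21), with the same limit. Of 19 genes for arrestins and ubiquitin ligase adaptors, which remove permeases from the cell surface, 6 were higher and 2 lower. These are 31.6% and 10.5%, beside 17.6% and 19.5% of all transcripts. ROD1, ART10 and SSH4 rose by 0.35, 0.30 and 0.26, and leaving out BY009, BY013 or BY010 gave 12, 2 and 2 higher. The threshold was missed by GLT1, GDH3, ART10 and SSH4 without BY013 (adjusted p from 0.0545 to 0.338), and GLT1, GDH2, GDH3 and SSH4 without BY010 (adjusted p from 0.0853 to 0.388).

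The genes for the nutrient signalling proteins moved in both directions. Of 20 genes for TORC1 and its effectors, 3 were higher and 3 lower, beside the 37.1% called among all transcripts, and TOR1, KOG1, LST8 and TCO89 of the complex stood at 0.085, −0.0041, −0.011 and −0.047 without passing. The phosphatase genes PPH3 and SIT4 fell, with log2 changes of −0.42 and −0.22. NPR1, for a kinase that controls permeases, rose by 0.17 (SE 0.036, adjusted p = 0.00411). Of 17 genes that relay amino acid signals to TORC1, 3 rose, of which NPR2 changed most, from 1768, 1827 and 1845 to 2430, 2118 and 2294 (0.33, SE 0.051, adjusted p = 0.000695), and 3, LST7, LST4 and PIB2, fell (−0.26, −0.18 and −0.17). These are 17.6% in each direction, near the 17.6% higher and 19.5% lower of all transcripts. In the Ras and protein kinase A list, 6 were higher (35.3%) and 3 lower (17.6%) of 17, beside the same shares of all transcripts. Without BY013, BY009 and BY010 the rises numbered 1, 5 and 1 among the genes that relay amino acid signals, 1, 8 and 0 among the TORC1 genes and 4, 8 and 3 among the Ras and protein kinase A genes. The catalytic subunit gene TPK2 rose from 2499, 2522 and 2580 to 3977, 3295 and 3902 (0.55, SE 0.052, adjusted p = 6.53e-05) and TPK3 fell from 2020, 1993 and 1919 to 1488, 1391 and 1493 (−0.44, SE 0.059, adjusted p = 0.000302). RAS2 and RAS1 changed by 0.20 (SE 0.038) and −0.43 (SE 0.045), the adenylate cyclase gene CYR1 by 0.30 (SE 0.035), and BCY1, for the inhibitory subunit, by 0.23 (SE 0.064). In leave-one-culture-out fits the call was lost by LST7, LST4, PIB2 and BCY1 without BY013 (adjusted p from 0.0811 to 0.178), and NPR1, LST7, LST4, PIB2, RAS2 and BCY1 without BY010 (adjusted p from 0.0603 to 0.186), and PIB2 without BY009 (adjusted p = 0.0711).

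In carbon and energy metabolism, 15 of 23 genes of the TCA cycle and its entry were higher and 0 lower (median 0.15), with 10, 18 and 10 higher without BY013, BY009 and BY010. They include the steps up to 2-oxoglutarate, CIT1 (7165, 7234 and 6980 at −10 min and 10302, 8924 and 9436 at 7 min; 0.42, SE 0.038), ACO1 (0.36, SE 0.047), IDH1 (0.30, SE 0.049) and IDH2 (0.46, SE 0.049), as well as the succinate dehydrogenase genes SDH1 (0.39) and SDH2 (0.35) and the cytosolic malate dehydrogenase gene MDH2 (0.63). FUM1, LPD1 and PYC2 stood at 0.021, 0.021 and −0.01 and did not pass. Of 38 genes of oxidative phosphorylation 19 were higher and 1 lower, with a median of 0.10, and counts of 9, 29 and 8 higher without BY013, BY009 and BY010. Beside CYC7, the largest rises were those of the internal NADH dehydrogenase gene NDI1 (0.48, SE 0.044), the cytochrome oxidase gene COX5B (0.46, SE 0.033) and NDE2 (0.45, SE 0.085), and the catalytic ATP synthase genes ATP1 and ATP2 had 0.018 and 0.021, not past the threshold. HAP4, for the activating subunit of the respiratory regulator Hap2/3/4/5, went from 987, 1042 and 935 to 1545, 1323 and 1260 (0.47, SE 0.063, adjusted p = 0.000294). MTH1, for a corepressor of hexose transporter genes, changed by 0.72 (SE 0.072) and CAT8, for an activator of gluconeogenic genes, by 0.47 (SE 0.095). The call was lost for NDE2 and CAT8 without BY010 (adjusted p from 0.0519 to 0.0669).

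Of the central glycolytic genes, PFK1, FBA1, TDH3, PGK1, CDC19, PDC1 and ADH1 lay between −0.027 and 0.0086, none of them past the threshold. Of the 31 genes of glycolysis and fermentation, 11 rose (35.5%, beside 17.6% of all transcripts) and 2 fell. The largest of these rises were those of HXK1 (6289, 6174 and 5806 at −10 min and 13009, 10014 and 11408 at 7 min; 0.91, SE 0.064), GPM2 (0.71, SE 0.061), EMI2 (0.64, SE 0.057), GLK1 (0.54, SE 0.045), and of FBP26 (0.47) and PFK26 (0.43), for enzymes that break down and make the regulator fructose-2,6-bisphosphate. Of 16 genes for hexose transporters and glucose sensors, 3 were higher (18.75%, near the 17.6% of all transcripts) and 0 lower, with a median of −0.028. On all 6 arrays 4 of the 16 lay at or below background. The rises were those of HXT5, HXT7 and HXT4 by 0.77 (SE 0.088), 0.61 (SE 0.048) and 0.24 (SE 0.052), and the probe set named HXT7 may also read near-identical family members. In the pentose phosphate pathway, genes that lead from ribose to nucleotides fell, RKI1, for ribose-5-phosphate isomerase, at −0.71 (SE 0.062) and the phosphoribosyl pyrophosphate synthetase genes PRS1, PRS3, PRS4 and PRS5 at −0.29, −0.32, −0.47 and −0.15, while SOL4 and NQM1 rose (1.24 and 0.35). MLS1, for malate synthase of the glyoxylate cycle, rose by 0.80 (SE 0.14, adjusted p = 0.00149), and the gluconeogenic and glyoxylate genes PCK1, FBP1 and ICL1 had 0.17, −0.097 and 0.11 and did not pass. No longer past the threshold were HXT4, PRS5 and NQM1 without BY013 (adjusted p from 0.0678 to 0.0968), and PRS5 and NQM1 without BY010 (adjusted p from 0.0657 to 0.087).

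Calls among genes for breaking down cell contents were mostly rises. Over all transcripts 17.6% were higher and 19.5% lower. All 12 genes of vacuolar proteases and their inhibitors were higher (median 0.20), with 6, 12 and 7 higher without BY013, BY009 and BY010. The inhibitor genes TFS1, PAI3 and PBI2 rose by 0.77 (SE 0.07), 0.68 (SE 0.083) and 0.39 (SE 0.031), the protease genes APE1 and PRB1 by 0.42 (SE 0.05) and 0.37 (SE 0.05), and PEP4, for the protease that activates the others, by 0.088 (SE 0.024). Of 31 autophagy genes 16 were higher and 3 lower (median 0.25, with 0.32, 0.022 and 0.27 in the cultures), with 12, 21 and 10 higher in the same order. ATG8, for the ubiquitin-like protein of the autophagosome membrane, went from 2763, 2615 and 2599 to 4775, 3726 and 4416 (0.69, SE 0.055, adjusted p = 5.09e-05), ATG29 from 102, 83.9 and 84.0 to 191, 138 and 142 (0.79, SE 0.087), ATG14 changed by 0.57 (SE 0.078) and the kinase gene ATG1 by 0.36 (SE 0.051). ATG5, ATG11 and ATG12 were lower, at −0.46, −0.25 and −0.19. Proteasome genes were higher in 11 of 38 cases with a median of only 0.068, and the count was 32 without BY009, 0 without BY013, 1 without BY010 and 30 with median centring. RPN4, for their activator, rose by 0.12 (SE 0.037, adjusted p = 0.024). For endocytosis and the actin patch, 15 of 39 were higher (median 0.089), with 34, 5 and 4 without BY009, BY013 and BY010 and 33 with median centring. The threshold was missed by PEP4, ATG11, ATG12 and RPN4 without BY013 (adjusted p from 0.0738 to 0.247), and PEP4, ATG11, ATG12 and RPN4 without BY010 (adjusted p from 0.0638 to 0.227).

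Among biosynthetic genes, falls outnumbered rises in several lists and were mostly small, and in some lists their number depended on the scaling. The share of all transcripts that were lower was 19.5%. For the general control of amino acid synthesis, 7 of 10 were lower, and they were the genes for initiation factor subunits and for GCN20, from GCD2 (−0.30, SE 0.08) to GCN20 (−0.12, SE 0.039), whereas GCN4 had −0.035 (adjusted p = 0.272) and GCN2 0.045 (adjusted p = 0.557). Pyrimidine synthesis fell in 9 of 15 cases (median −0.18), led by URA7, for CTP synthase, at 5884, 6054 and 5821 at −10 min and 2886, 3843 and 3335 at 7 min (−0.83, SE 0.12, adjusted p = 0.000377). Its activator gene PPR1 changed by −0.73 (SE 0.098) and URA1 by −0.50 (SE 0.061). In purine metabolism, AAH1, for adenine deaminase, went from 4698, 4877 and 4506 to 2091, 2772 and 2425 (−0.96, SE 0.099, adjusted p = 9.03e-05), the activator gene BAS1 fell by 0.89 on the log2 scale (SE 0.094) and IMD4, for an IMP dehydrogenase, by 0.49 (SE 0.046), and of 12 genes of purine synthesis 6 were lower, with 1 under median centring. In amino acid pathways, BAT2, for the cytosolic branched-chain aminotransferase, rose by 0.44 (SE 0.05, adjusted p = 0.000133) and LEU9 fell by 0.33 on the log2 scale. ARG80 and ARG3 of arginine synthesis changed by −0.64 (SE 0.094) and 0.15 (SE 0.029), HIS6 by −0.39 (SE 0.052) and HOM3 by −0.25 (SE 0.037). Of 27 genes of sulfate assimilation and methionine synthesis 10 were lower (median −0.067), MET8 the furthest at −0.68 (SE 0.086), and of 21 of one-carbon metabolism 10 were, GLY1, for threonine aldolase, the furthest at −0.56 (SE 0.066). Of 26 iron regulon genes 12 were lower, among them FET4 (−0.50, SE 0.11) and SIT1 (−0.43, SE 0.056). Without BY013 or BY010 the falls numbered 5 and 4 in sulfate assimilation, 8 and 5 in one-carbon metabolism, 6 and 5 in the iron regulon and 1 and 2 in purine synthesis. With median centring the falls numbered 6 in general control, 8 in pyrimidine synthesis, 6 in sulfate assimilation, 8 in one-carbon metabolism and 10 in the iron regulon. Purine synthesis then had 2 higher and 1 lower, and lysine synthesis 4 higher and 0 lower in place of 1 and 2. In leave-one-culture-out fits the call was lost by GCN20 without BY013 (adjusted p = 0.0907), and GCN20 and ARG3 without BY010 (adjusted p from 0.0711 to 0.136).

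Lists for the cell cycle, sterols and organelles had shares of calls near or below those of all transcripts, of which 17.6% were higher and 19.5% lower. Of 10 histone genes 1, the linker histone gene HHO1, passed (0.14, SE 0.034, adjusted p = 0.00872). Of 15 genes of G1 cyclins and Start, 3 were higher, CLN3 among them (0.23, SE 0.066, adjusted p = 0.0213), and 2 lower. Of 27 genes of ergosterol synthesis 1, ERG28, was higher (0.12) and 5 were lower. Of 32 mitochondrial import genes 2 were higher and 8 lower (median −0.043), PAM18 the furthest at −0.29 (SE 0.04), and the falls numbered 1, 8 and 2 without BY013, BY009 and BY010 and 3 with median centring. Of 30 genes for peroxisomes and fatty acid oxidation 6 were higher, PXA2 (0.55, SE 0.087) and CRC1 (0.52, SE 0.098) the most, and 3 lower, FAA2 the furthest (−0.27, SE 0.09). The rises numbered 2, 12 and 4 in the peroxisome list and 1, 5 and 2 in the G1 list, and the falls 2, 7 and 2 in the ergosterol list, when BY013, BY009 and BY010 were left out. The call was lost for HHO1, CLN3, ERG28 and CRC1 without BY013 (adjusted p from 0.0667 to 0.172), and for HHO1, CLN3, ERG28 and FAA2 without BY010 (adjusted p from 0.121 to 0.392).

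In several pairs of related genes, 1 member moved at 7 min and the other did so less or in the opposite direction. These 19 pairs were picked with their values known, and the difference within a pair was not tested. In 6 pairs both passed in opposite directions. These were TPK2 and TPK3, RAS2 and RAS1, GPD1 and GPD2, for the isoforms of glycerol-3-phosphate dehydrogenase (0.29, SE 0.04, and −0.44, SE 0.072), SOL4 and SOL3 (1.24 and −0.11), PGM2 and PGM1, and NDE2 and NDE1, for external NADH dehydrogenases (0.45, SE 0.085, and −0.11, SE 0.032). The small falls of SOL3, PGM1 and NDE1 depended on the scaling. With median centring they did not pass (limma adjusted p of 0.139, 0.0655 and 0.144). In 12 pairs only 1 passed. CYC7 rose while CYC1, for the main cytochrome c, had −0.091 (adjusted p = 0.137), MPC3 rose while MPC2 had −0.069 (adjusted p = 0.0719), and HXK1 rose while HXK2, for the main hexokinase, had −0.042 (adjusted p = 0.21). Among falling members, AIR1 and TRF5 stood beside AIR2 (−0.12, adjusted p = 0.0931) and PAP2 (−0.13, adjusted p = 0.183), and RPL22B and RPS9A beside RPL22A (−0.051) and RPS9B (−0.0055). Both genes rose in 1 pair, COX5B by 0.46 (SE 0.033) and COX5A by 0.11 (SE 0.028). No longer past the threshold were SOL3, PGM1, NDE1, RPS9A and COX5A without BY013 (adjusted p from 0.0669 to 0.317), and RAS2, SOL3, PGM1, NDE2, NDE1, RPS9A and COX5A without BY010 (adjusted p from 0.0519 to 0.2), and PGM1 without BY009 (adjusted p = 0.0773).

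**Figure D3:**
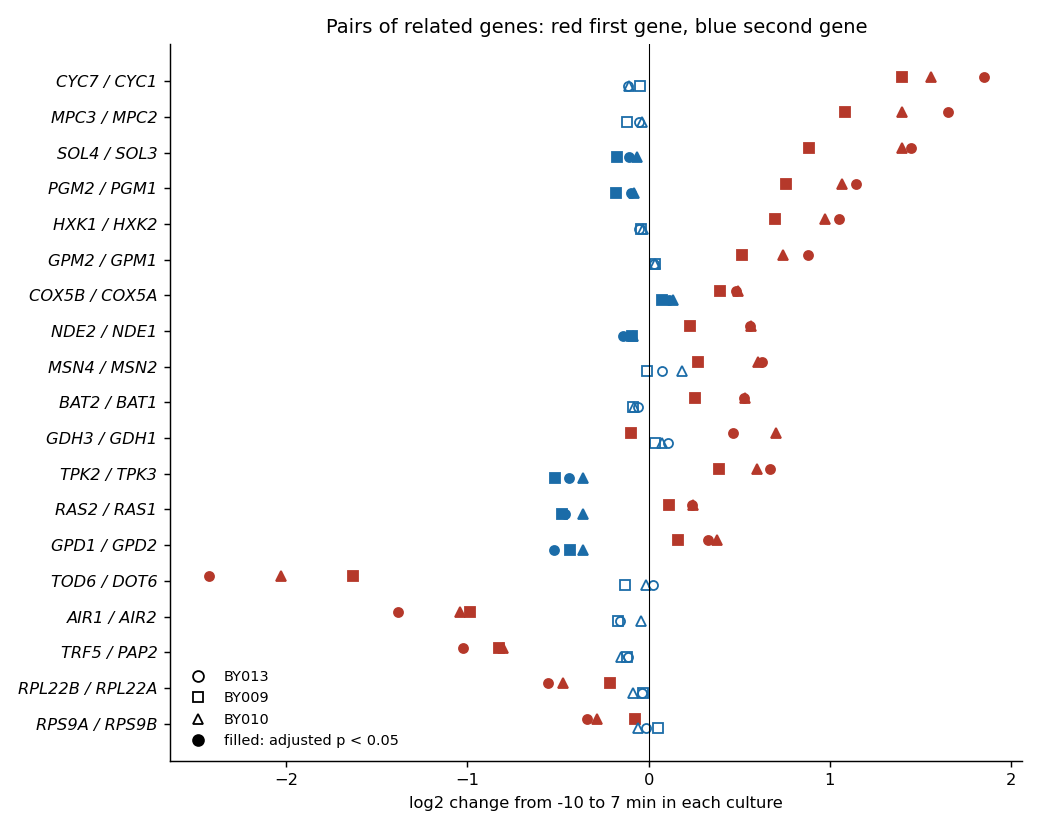
Log2 change from −10 to 7 min in each culture for 19 pairs of related genes, the first gene of a pair in red and the second in blue, with a symbol per culture, filled where limma's adjusted p was under 0.05. The blue symbols cluster near 0 in most pairs, except for TPK3, RAS1 and GPD2, which lie to the left of 0.

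The size of the response differed between the cultures. Over all 5498 transcripts 3370 (61.3%) changed the same way in 3 of 3 cultures, and of the 2040 called in the fit on these cultures 2018 did. Against its own −10 min array, BY013 had 156 transcripts over 2-fold, BY010 had 98 and BY009 had 28. In all 3 cultures alike, 4 transcripts were higher and 17 lower by more than 2-fold. Over the 358 called transcripts that changed by more than 1.5-fold on average, BY013 gave the largest change of the 3 for 326 and BY009 the smallest for 308. The median rise among them was 0.94, 0.52 and 0.85 on the log2 scale in BY013, BY009 and BY010, and the median fall −0.94, −0.67 and −0.77, with the smallest changes in BY009 in both directions. By 24 min the cultures lay closer together relative to the size of the changes, and the falls no longer had this order. The same transcripts then had median rises of 2.02, 1.94 and 2.00 and median falls of −3.09, −3.31 and −3.17, and transcripts over 2-fold numbered 966, 924 and 964. No test was made of these differences between cultures, since each culture has 1 array per time. The array of BY009 at 7 min also had the lowest summed intensity of the 6 (22691203) and the median change of all its transcripts was −0.053, and the part of these values in the smaller changes was not tested.

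**Figure D4:**
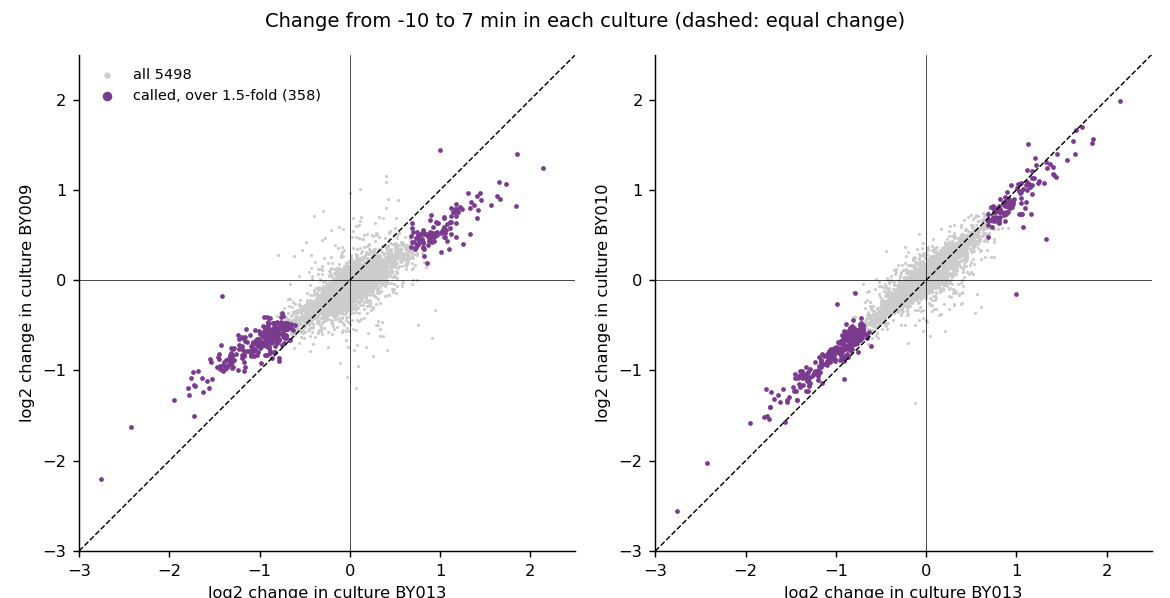
Log2 change from −10 to 7 min of 5498 transcripts in culture BY013 on the horizontal axis against BY009 (left) and BY010 (right) on the vertical axis, with the 358 called transcripts over 1.5-fold in purple and a dashed line of equal change. Points against BY009 lie flatter than the dashed line on both sides of 0, and those against BY010 lie nearer to it.

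In BY013, which was sampled more often, the state at 7 min can be placed on a course. With 1 array each and no test, only 4 transcripts were over 2-fold from −10 min at −5 min and 6 at 3 min. At 7 min there were 156, and the number went on to 434, 724 and 966 at 10, 14 and 24 min. At 3 min the small- and large-subunit ribosome assembly lists had medians of −0.42 and −0.40 in this culture, against −0.97 and −0.94 at 7 min and −1.64 and −1.57 at 10 min. The allantoin list stood at 0.47, 0.70 and 1.07 at 3, 7 and 10 min, and trehalose and glycogen at 0.39, 0.80 and 1.30. At −5 min, before the nominal shift, the assembly lists had medians of −0.097 and −0.13, allantoin 0.22 and trehalose and glycogen 0.15. AGP1 had changed by −1.30, −1.98 and −2.76 at −5, 3 and 7 min. TOD6 was at −1.12 at 3 min and LEE1, DAL4 and CIN5 at 1.21, 1.01 and 0.99.

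Most of what moved by 7 min moved further by 24 min. In the same fit, 4145 transcripts (75.4%) passed between 7 and 24 min, 46.3% of all higher and 29.1% lower, and this comparison shares the 7 min arrays with the first. Of the 968 transcripts higher at 7 min, 905 rose further, 49 did not pass and 14 turned back. Of the 1072 that were lower, 891 fell further, 145 did not pass and 36 turned back. Among those over 1.5-fold at 7 min, 3 of 358 turned back. The assembly lists went from −0.82 and −0.76 at 7 min to −3.61 and −3.67 at 24 min, ribosomal proteins from −0.023 to −0.45, Msn2 and Msn4 targets from 0.53 to 1.43 and allantoin genes from 0.53 to 1.05.

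A few genes had most of their change by 7 min. CIN5, DAL1 and DAL2 changed by −0.18, −0.16 and 0.22 between 7 and 24 min after rises of 1.41, 0.96 and 0.85, with adjusted p of 0.285, 0.337 and 0.0754 for the later step. YKR075C and YGR122W did likewise (0.78 then −0.17, and 0.64 then −0.18). Among falls, INO2, for an activator of phospholipid synthesis genes, went by −0.61 and then −0.074, and SLP1 by −0.61 and then −0.25. RRN7 and RRN3 went by −0.72 and −0.59 and then by −0.28 and −0.48, so the larger step came by 7 min and a smaller one later. Of the 242 transcripts lower by more than 1.5-fold, 240 fell further, 1 did not pass and 1 turned back. Most of these named falls thus also went on past 7 min. Of the Ty1 element YAR009C, whose copies share probes, 1 culture fell while the others rose (1.00, 1.45 and −0.15), so its call is uncertain. The threshold was missed by INO2 and YAR009C without BY013 (adjusted p from 0.0512 to 0.0674).

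Others turned. FMP48, MEP1, YER053C-A, ARG3, BTN2 and RSB1 rose by 0.65, 0.55, 0.55, 0.15, 0.18 and 0.45 at 7 min and then fell, with log2 changes from 7 to 24 min of −0.92, −0.86, −0.59, −0.79, −0.47 and −0.46 (adjusted p at most 0.00157). FMP48, for a mitochondrial protein, went from 915, 925 and 904 to 1611, 1244 and 1474 and then 754, 812 and 706, back below its level at −10 min. GAT1 was close to these, with 0.30 and then −0.28. Genes that fell and then rose include YOR338W (−0.41, then 1.47), CAR1 (−0.27, then 0.67), ATO3 (−0.30, then 0.75) and YKL068W-A (−0.48, then 0.58), with adjusted p of at most 4.47e-05 for the later step. CTF13 and YMR084W met the same description but lay at or below background on all arrays at 7 min, so no fold is given. OAZ1, for antizyme, a regulator of polyamine synthesis, fell from 2137, 2207 and 2009 to 1293, 1554 and 1304 and stood at 1780, 1658 and 1654 at 24 min. In leave-one-culture-out fits the call was lost by YER053C-A, BTN2, YOR338W, CTF13 and YMR084W without BY013 (adjusted p from 0.0526 to 0.294), and ARG3, BTN2, YOR338W, ATO3, CTF13 and YMR084W without BY010 (adjusted p from 0.0636 to 0.243), and YMR084W without BY009 (adjusted p = 0.0592).

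**Figure D5:**
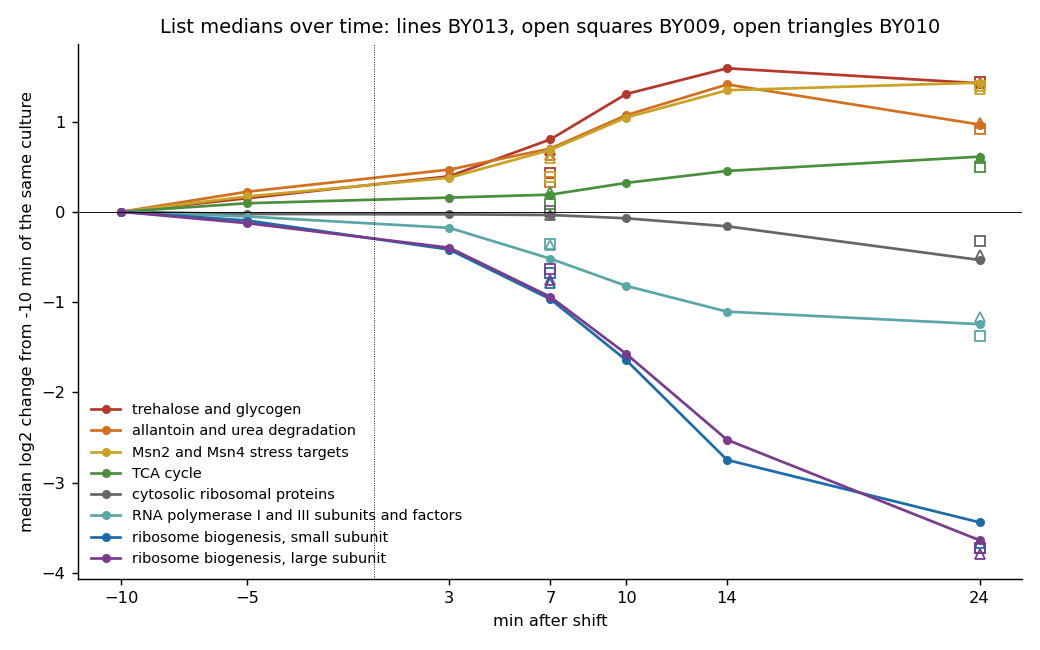
Median log2 change from −10 min of the same culture for 8 gene lists from −10 to 24 min, with a line for BY013 and open squares and triangles for BY009 and BY010 at 7 and 24 min. At 7 min the open symbols of the moving lists lie nearer to 0 than the line in most lists, and at 24 min they lie on or near it.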

How the data were processed

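RNA of 6 samples, from 3 cultures at −10 and 7 min, was compared within a series of 15 arrays. Per the labels and the study's methods, the authors corrected the background by RMA on perfect-match probes, normalized by QSPLINE over the 15 arrays, summarised probe sets by the Li-Wong model and deposited linear intensity values. According to the processing notes of the submitters, R 2.10.0 with affy was used. The labels name a One-Cycle cDNA kit and the methods a 3′ IVT Express kit, and which was used for these arrays is not settled here. Each array's intensity is relative to the other arrays of the series, and precision is limited by how few arrays there are.

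Of 10928 probe sets, the 5498 for single S. cerevisiae genes (5449 genes) were used, and their genes were named from the platform annotation. Of these, 103 have probes shared within a gene family (_s_at) and 25 probes that may cross-hybridise (_x_at). A gene was read from 1 probe set, and of 49 further probe sets 5 differed in their call and 0 had a call in the opposite direction. Intensities were taken to log2 with no pseudocount. In limma 3.58.1 (R 4.3.3), 1 mean per time was fitted over all 15 arrays with the culture as a block, a trended eBayes and 4 residual degrees of freedom. The p-values were adjusted by the Benjamini-Hochberg method over 5498 transcripts, with a threshold of 0.05. The spread was thus shared over all times, and a value with SE is the fitted log2 change and its standard error. The fit was tested on simulated data with 200 changed genes. Figures were drawn with matplotlib 3.10.9 in Python 3.11.15, after tables made with pandas 2.3.3 and numpy 2.4.6.

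The culture pairs the samples, since both samples of a number came from the same bioreactor. The deviations of samples of 1 culture from the group means correlated at −0.27 to 0.19. The alternatives were no replicate block, the culture as a random block (statmod 1.5.0), only the 6 arrays, quantile normalization, median centring, 50 added before log2, a filter on dim probe sets, eBayes without a trend, and leaving out each culture. Where a dim group lay below background on all its arrays, its value was raised to the background level of 68.1 and the fold given as a lower bound.

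The members, the 65 gene lists and the tests were chosen with earlier results of these data known. Genes were named where they were among the 25 largest rises or falls with the same direction in 3 cultures and a mean above background, among up to 4 largest called changes of a list, members of a list of 12 or fewer, or among 6 in each direction that turned back by 24 min or that changed least from 7 to 24 min after a change of 1.5-fold. Other single genes, and the 19 pairs, were chosen after their values were seen. A search of promoters for motifs was planned and not run, since no sequences were at hand. Columns of the other times were used for the course over time, and those at 24 min also for the spread.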

Additional observations from a re-analysis of the deposited data

Results flagged for a closer look

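Among 3517 probe sets of the array that the annotation used here ties to no gene and that entered no comparison above, 516 lay above background. In the same limma model, fitted and adjusted over these probe sets alone, 52 passed an adjusted p of 0.05. Of them 50 were above background (41 higher and 9 lower), and 320 of the 3517 had an unadjusted p under 0.05. These signals come from data outside the main measurement. The probe sets for another organism, of which 0 of 1746 passed, were adjusted separately and lay mostly below background, so they are no measure of false calls here. Probe set 1780022_at rose more than any of the 5498 gene transcripts, from 624, 699 and 561 in BY013, BY009 and BY010 at −10 min to 3849, 2288 and 3151 at 7 min, a log2 change of 2.28 (SE 0.13, adjusted p = 2.17e-06), and it stood at 13880, 14112 and 14371 at 24 min. Probe set 1769585_at rose by 1.24, from 329, 320 and 291 to 940, 552 and 774. Probe sets 1773125_at and 1779680_at changed by −1.03 and −0.88, from 1714, 1843 and 1689 to 722, 982 and 892 and from 2360, 2408 and 2232 to 1125, 1390 and 1293. What these probe sets read was not tested. No group held enough samples for a test of single outlying arrays.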

How the results depend on the processing

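The 50 largest rises and falls kept their call in 550 of 550 refits over the 11 alternatives. They were picked as the largest called changes on these same arrays, so this count was favoured by the choice and does not speak for smaller changes. Their direction without any 1 culture was fixed by their choice for the same direction in 3 cultures. The counts of calls depended on single cultures, and leaving out each culture in turn gave 1112 to 2725 called transcripts, 470 to 1493 higher, 632 to 1232 lower and 53 to 114 over 2-fold. Of 289 called genes named by the rule, 84 lost the call without BY013, 7 without BY009 and 73 without BY010, and 0 changed sign. Without the replicate block, which pairs the samples by culture, 2165 transcripts passed, of which 2007 were also called with the block, and 5 of the 289 lost the call. Fitting only the 6 arrays gave 1905 and dropping the trend gave 1925.

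Median centring raised the number of higher transcripts to 1547, with 905 lower, and turned the median of the ribosomal protein list to 0.025. It also turned the medians of the hexose transporter (0.021), arginine (0.030), aspartate to threonine (0.0050), histidine (0.0082) and mitochondrial import (0.0056) lists, and the hexose transporter median was likewise above 0 with the filter on dim probe sets (0.015) and without BY009 (0.0075), against −0.057 without BY010. By its construction, centring adds the same amount to all transcripts of an array, and the median of all transcripts moved to 0.038. With 3 cultures and 1 array each, small changes are the least certain, and signals near the background of 68.1 give only bounds.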
